A study of Mus musculus with 13 samples.

Results

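The transcripts described here encode 10 heat shock proteins and cochaperones, which were measured in whole implantation sites of mouse and rat embryos carried in mouse uteri. They were Hspa1a, Hspa1b, Hspa8, Hsph1, Dnajb1, Hspb1, Hsp90aa1, Hspe1, Hspa4l and Cryab. Every probe set whose only symbol in the platform annotation was one of these genes was taken, which gave 29 of the 45101 probe sets of the array and 10 of 18194 genes with a probe set of 1 symbol. After a filter on dim signals 24 of the 29 were tested, at least 1 for each gene. The 5 dim ones were a Cryab, a pair of Hsp90aa1 and a pair of Hspa4l probe sets, and none of their signals exceeded 296.3 on any array.

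An implantation site is the swelling of the uterus that holds an embryo together with the decidua, the transformed uterine stroma around it. All recipients were female ICR mice of 25 g, and embryos were placed in them on day 3 of pseudopregnancy, mouse embryos after flushing on day 4 and embryos of Wistar rats after flushing on day 5. The arrays fall into 6 groups, namely mouse sites, rat sites and co-transfer sites, the last being sites of rat embryos that shared the uterus with mouse embryos, each taken on day 7 or day 9. Co-transfer sites of day 7 had 3 arrays and every other group had 2, so 13 Affymetrix Mouse430_2 arrays were compared. The labels do not say whether the arrays of a group came from different animals or pooled sites, and p-values then measure only the spread between these arrays, which may be technical. The labels give the recipients' strain and not that of the mouse embryos.

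Heat shock proteins are chaperones, which bind unfolded proteins, keep them from clumping and help them fold. Hsp70 proteins work with Hsp40 cochaperones, which bring substrates, and with Hsp110 proteins, which exchange the bound nucleotide, while Hsp90 acts later on signalling proteins such as steroid receptors. Small heat shock proteins hold unfolded clients without ATP. The factor HSF1 binds heat shock elements, inverted repeats of GAA and TTC, and switches on the inducible members, most of all Hspa1a and Hspa1b. In the uterus, Hsp90 and its cochaperones hold the progesterone receptor in the state that binds hormone.

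The promoters are shown because the members that moved most, Hspa1a and Hspa1b, have windows that are nearly the same. Those of Hspe1 and Hsph1 are shown because they hold runs of 3 exact units, GAA and TTC in turn. RefSeq windows (GRCm38.p6, 250 bases before to 50 after the start of the gene) were found for 7 of the 10 members, and Hspa8, Hsp90aa1 and Cryab had none in the table used. The windows lay at chr17:34972107-34972406 on the minus strand for Hspa1a, chr17:34959189-34959488 on the minus strand for Hspa1b, chr1:55087898-55088197 on the plus strand for Hspe1 and chr5:149636287-149636586 on the minus strand for Hsph1. Capitals mark units GAA or TTC that belong to a match.
Hspa1a: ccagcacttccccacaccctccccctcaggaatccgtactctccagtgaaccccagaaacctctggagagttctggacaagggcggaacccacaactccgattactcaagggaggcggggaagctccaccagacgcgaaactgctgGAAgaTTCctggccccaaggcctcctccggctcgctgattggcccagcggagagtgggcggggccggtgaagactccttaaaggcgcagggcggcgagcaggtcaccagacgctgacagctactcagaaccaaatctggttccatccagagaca
Hspa1b: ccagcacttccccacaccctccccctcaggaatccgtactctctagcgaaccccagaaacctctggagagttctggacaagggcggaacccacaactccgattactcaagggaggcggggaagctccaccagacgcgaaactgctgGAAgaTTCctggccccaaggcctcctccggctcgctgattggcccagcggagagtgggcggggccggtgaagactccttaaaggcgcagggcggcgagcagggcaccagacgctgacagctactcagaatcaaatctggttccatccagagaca
Hspe1: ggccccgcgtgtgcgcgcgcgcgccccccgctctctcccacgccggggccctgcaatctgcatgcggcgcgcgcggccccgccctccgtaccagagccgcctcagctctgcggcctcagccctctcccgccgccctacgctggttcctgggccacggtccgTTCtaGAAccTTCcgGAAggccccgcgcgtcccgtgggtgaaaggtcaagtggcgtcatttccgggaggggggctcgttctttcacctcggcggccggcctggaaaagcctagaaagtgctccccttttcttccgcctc
Hsph1: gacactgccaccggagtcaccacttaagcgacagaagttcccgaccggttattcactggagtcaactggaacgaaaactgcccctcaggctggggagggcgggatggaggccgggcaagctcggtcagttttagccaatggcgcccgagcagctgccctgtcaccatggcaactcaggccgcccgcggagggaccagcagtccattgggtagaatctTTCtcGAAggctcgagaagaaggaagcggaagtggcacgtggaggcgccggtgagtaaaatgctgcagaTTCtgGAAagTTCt
Both pair motifs, GAANNTTC and TTCNNGAA, read the same on either strand, and they can share a unit. GAANNTTC was in the windows of 5 of the 7 members (Hspa1a, Hspa1b, Hspb1, Hspe1 and Hsph1) and of 9.036% of all 27025 genes with a window. TTCNNGAA was in Hspe1 and Hsph1, and in 9.599% of all genes. A run of 3 units in turn was in Hspe1 and Hsph1, and in 0.662% of all genes. The single match of Hspa1a and that of Hspa1b both began at base -104 from the start, and the windows of this pair differed at 4 of 300 bases. No match was found in the windows of Hspa4l and Dnajb1. Only exact GAA and TTC units were searched, so runs that hold a unit with a changed letter were not counted, in Hspa1a and Hspa1b as elsewhere. These are matches of letters and not measured binding sites.

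Signals are MAS5 intensities on a linear scale, and log2 changes are differences of log2(signal + 57.1), which understates changes of dim probe sets. Array medians ran from 141.4 to 204.6. A change was called at an adjusted p under 0.05 in limma's moderated test across 22138 probe sets (Benjamini-Hochberg within each comparison), and all adjusted p-values below come from that fit. From the recorded hybridisation times, 4 runs were inferred. Mouse and rat sites of day 7 shared a run, rat and co-transfer sites of day 9 shared another, and in the other comparisons no run held arrays of both groups, so a run's part cannot be told apart from the group's. Of the co-transfer sites of day 7, replicate 3 was alone in its run, on another date and scanner. The probes match mouse transcripts, so a rat transcript may be read poorly, and in whole tissue fewer cells of a type and less RNA per cell cannot be told apart.

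The inducible Hsp70 genes were high in a pair of groups and low in the other 4. Hspa1a (probe set 1452388_at), which encodes a stress-inducible cytosolic Hsp70, had signals of 3252.9 and 3721.9 in mouse sites of day 7 and of 5854.2 and 5069 in rat sites of day 9. It had 460.2 and 461.5 in rat sites of day 7, 438.7, 351.3 and 459.1 in co-transfer sites of day 7, 537.1 and 471.5 in mouse sites of day 9, and 661.6 and 674.7 in co-transfer sites of day 9. Both arrays of mouse sites of day 7 and both of rat sites of day 9 thus lay far above the other 9 arrays, with no overlap. Rat sites were below mouse sites on day 7 by -2.77 in log2 change (SE 0.134, adjusted p = 2.251e-06) and above them on day 9 by 3.30 (SE 0.134, adjusted p = 1.016e-07). Co-transfer sites were below rat sites on day 9 by a log2 change of -2.92 (adjusted p = 2.128e-07). On day 7 these groups differed by -0.14 (SE 0.122, adjusted p = 0.6778), which missed the threshold.

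Over the days the mouse and the rat sites moved in opposite directions. From day 7 to day 9 Hspa1a fell by 2.66 on the log2 scale in mouse sites (SE 0.134, adjusted p = 5.319e-07), rose by 3.41 in rat sites (SE 0.134, adjusted p = 8.531e-08) and rose by 0.62 in co-transfer sites (SE 0.122, adjusted p = 0.004633). By mean signal the groups stood in the order rat day 9 (5462), mouse day 7 (3487), co-transfer day 9 (668.1), mouse day 9 (504.3), rat day 7 (460.9) and co-transfer day 7 (416.4). Co-transfer and mouse sites of day 9 differed by 0.37 (SE 0.134, adjusted p = 0.1296), and each of the last 3 groups differed from its neighbour in that order by less than the SD of co-transfer sites of day 7 (57.3). The pairs of groups that lie on different days with different embryos were not tested.

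Hspa1b, the near-identical neighbour gene for inducible Hsp70, was high in the same pair of groups on all 3 probe sets, with another order among the low groups. Its brightest, 1452318_a_at, had 7748.5 and 7875.3 in mouse sites of day 7, 9483 and 8910.7 in rat sites of day 9, and from 2369.4 to 3227.3 on the other 9 arrays. The dimmer 1427126_at had 5704.5 and 5879.7 in mouse sites of day 7, 5436.5 and 5495.6 in rat sites of day 9, and from 938 to 1202.4 elsewhere. No array of the 4 low groups overlapped with the high ones on any of the 3 probe sets. On day 7 rat sites were below mouse sites by -1.35 (1452318_a_at, SE 0.102), -2.23 (1427126_at, SE 0.085) and -1.64 (1427127_x_at, SE 0.092), with adjusted p-values from 1.352e-06 to 2.449e-05. On day 9 they were above them by 1.90, 2.29 and 1.92, with adjusted p-values from 5.605e-08 to 5.798e-07. Transcripts of Hspa1a and Hspa1b are so alike that these probe sets may read both, and 1427127_x_at is of a class that Affymetrix marks for probes shared with other sequences.

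**Figure D1:**
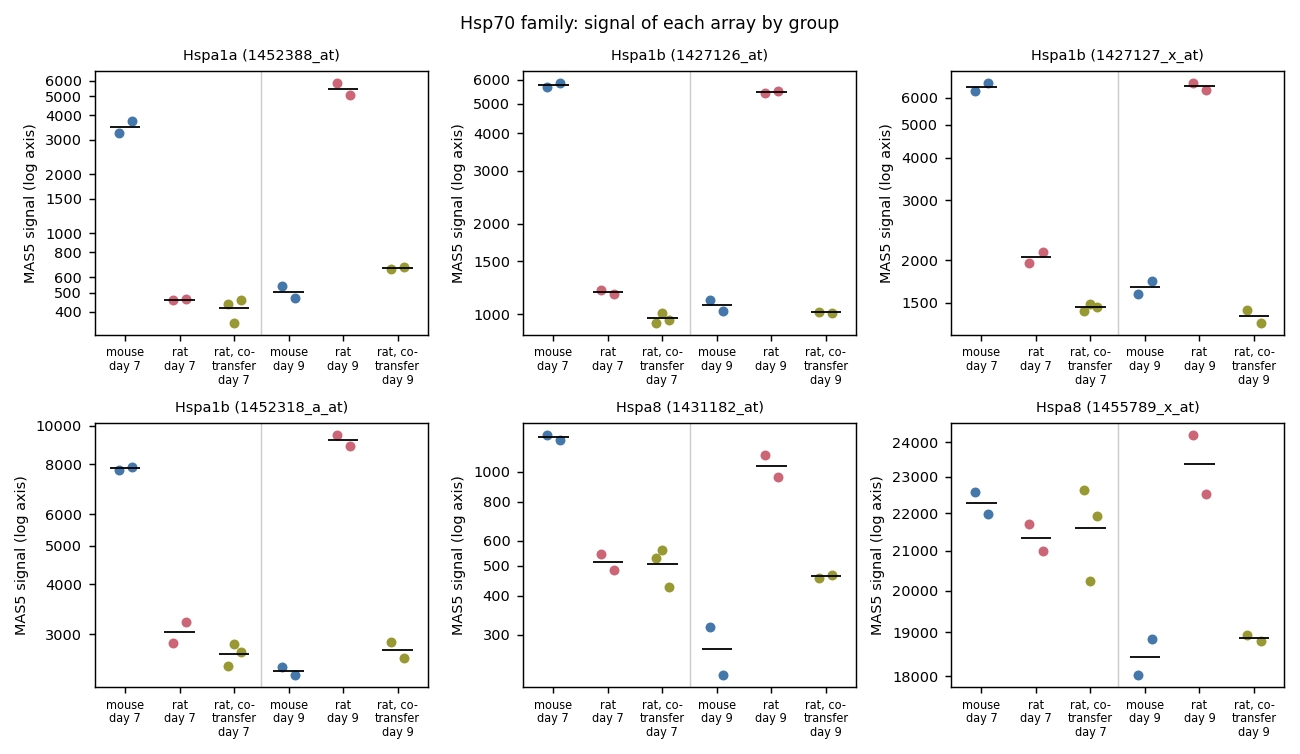
Signal of each array (points) and group mean (black bars) for the Hspa1a probe set, 3 Hspa1b and 2 of 4 Hspa8 probe sets, on log axes that differ between panels. In the Hspa1a and Hspa1b panels and in Hspa8 1431182_at the mouse sites of day 7 and the rat sites of day 9 lie above all other arrays, and in Hspa8 1455789_x_at the mouse and co-transfer sites of day 9 lie lowest.

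Co-transfer sites of day 9 had Hspa1b signals near those of mouse sites and far under those of rat sites. On 1452318_a_at the co-transfer sites of day 9 read 2865.2 and 2616.4, a log2 difference of -1.73 from rat sites (SE 0.102, adjusted p = 1.105e-06) and of 0.17 from mouse sites (SE 0.102, adjusted p = 0.3546). The other probe sets gave -2.36 and -2.19 from rat sites, both called. On day 7 co-transfer sites lay under mouse sites by -1.53, -2.51 and -2.11, again all called, in a comparison that shares the mouse arrays with that of rat sites. Under rat sites of day 7 only 1427127_x_at was called (-0.47, SE 0.084, adjusted p = 0.03518), and this call was lost in 15 of 20 alternative settings. Every other called value of Hspa1a and Hspa1b was called in each of the 20 settings.

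Hspa8 encodes the constitutive Hsp70 of the cytosol, which folds new proteins and uncoats clathrin vesicles. Its 3 bright probe sets changed little, and a dim one followed the pattern of Hspa1a. The brightest, 1455789_x_at, read 22571.3 and 21966.3 in mouse sites of day 7, 21697.8 and 21001.9 in rat sites of day 7, 22634.9, 20231.2 and 21922.3 in co-transfer sites of day 7, 18029.5 and 18845.9 in mouse sites of day 9, 24219.5 and 22527.6 in rat sites of day 9, and 18942.9 and 18794.3 in co-transfer sites of day 9. Mouse and co-transfer sites of day 9 were the low groups and overlapped with no other. Rat sites exceeded mouse sites on day 9 by 0.34 (SE 0.09, adjusted p = 0.01623, called in all but 5 of 20 settings), and co-transfer sites lay under rat sites by -0.31 (adjusted p = 0.02458, lost in 6 settings). The bright 1420623_x_at gave 0.33 and -0.29, called and lost in 4 and 6 settings. The bright 1420622_a_at gave 0.54, called and lost in 4 settings, and -0.34 (adjusted p = 0.1206), not called.

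The Hspa8 probe set 1431182_at stood apart from the other 3. It read 1310.8 and 1264.4 in mouse sites of day 7 and 1132 and 958 in rat sites of day 9, against 223.2 to 562.7 on the other 9 arrays. Rat sites were below mouse sites on day 7 by -1.24 (SE 0.161, adjusted p = 5.574e-04) and above them on day 9 by 1.76 (SE 0.161, adjusted p = 2.350e-05), and co-transfer sites lay under rat sites on day 9 by -1.08 (adjusted p = 6.042e-04). The bright probe sets showed -0.06 to -0.20 between rat and mouse sites of day 7, none called. The annotation names the same target sequence for 1420622_a_at and 1420623_x_at, and a different one each for 1455789_x_at and 1431182_at. The 4 are therefore given side by side.

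The Hsp110 members act on the nucleotide exchange of Hsp70. Hsph1 (1425993_a_at) read 2602.9 and 2692.6 in mouse sites of day 7, 3069.8 and 3339 in rat sites of day 7, 3424.9, 3353.2 and 3307.6 in co-transfer sites of day 7, 2924.4 and 2697.3 in mouse sites of day 9, 3779.5 and 3901.7 in rat sites of day 9, and 2904.7 and 2706.4 in co-transfer sites of day 9. The arrays of rat sites of day 9 were the highest, and those of mouse and co-transfer sites of day 9 overlapped. Rat sites exceeded mouse sites on day 9 by 0.44 (SE 0.089, adjusted p = 0.003983) and co-transfer sites lay under rat sites by -0.45 (SE 0.089, adjusted p = 0.003631). The second probe set, 1423566_a_at, was also lower in co-transfer than in rat sites of day 9 (-0.63, SE 0.202, adjusted p = 0.03707, lost in 6 of 20 settings), and its other called change was the fall in co-transfer sites over the days (-0.74).

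Hspa4l, a testis-enriched relative of Hsph1, was dim, and its probe sets gave unlike results. The representative 1429106_at read 363 and 286.6 in mouse sites of day 7, 191.9 and 217.4 in rat sites of day 7, 269.3, 222.2 and 228.3 in co-transfer sites of day 7, 352.3 and 260 in mouse sites of day 9, 373.8 and 358.4 in rat sites of day 9, and 423.1 and 318.6 in co-transfer sites of day 9. Its rat sites of day 7 were the lowest arrays of all 13. It rose in rat sites over the days by 0.70 (SE 0.166, adjusted p = 0.008654, lost in 2 settings), and 1418253_a_at (1.17, adjusted p = 0.004856) and 1449010_at (0.85, adjusted p = 0.001186) rose as well. In co-transfer against rat sites of day 9 the probe sets disagreed, with 0.01 for 1429106_at and -1.01 for 1418253_a_at (SE 0.25, adjusted p = 0.01118). The lower signal of 1429106_at in rat than in mouse sites of day 7 (-0.54, adjusted p = 0.04064) was lost in 12 settings.

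Dnajb1, the stress-inducible Hsp40 that delivers substrates to Hsp70, differed mainly on day 9. Its probe set 1416756_at read 522.9 and 573.5 in mouse sites of day 7, 396.7 and 389.4 in rat sites of day 7, 477.1, 488.8 and 479.4 in co-transfer sites of day 7, 796.6 and 646.7 in mouse sites of day 9, 803.8 and 728.9 in rat sites of day 9, and 418.9 and 506.6 in co-transfer sites of day 9. Mouse and rat sites of day 9 overlapped and lay above every other array. Co-transfer sites were under rat sites of day 9 by -0.67 (SE 0.12, adjusted p = 0.001998) and by -0.41 on the brighter 1416755_at (SE 0.119, adjusted p = 0.02395, lost in 5 settings). In rat against mouse sites of day 9, 1416755_at was higher by 0.37 (SE 0.119, adjusted p = 0.03762, lost in 11 settings), and 1416756_at gave 0.09 (adjusted p = 0.6328) and was not called. In rat against mouse sites of day 7 the probe sets pointed in opposite directions, with 0.27 for 1416755_at (not called) and -0.43 for 1416756_at (adjusted p = 0.02851, lost in 7 settings). Over the days 1416756_at rose in rat sites by 0.87 (SE 0.12, adjusted p = 3.759e-04, called in all 20 settings). It rose in mouse sites by 0.36 (adjusted p = 0.03551, lost in 9 settings). In co-transfer against mouse sites of day 9 it gave -0.58 (adjusted p = 0.01802, lost in 4 settings). In these comparisons 1416755_at gave 0.04, -0.06 and -0.04, none called.

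Hsp90aa1 encodes the inducible cytosolic Hsp90, which matures steroid receptors and kinases. Its probe set 1426645_at read 3489.5 and 3663.3 in mouse sites of day 7, 3096.4 and 3109.1 in rat sites of day 7, 3484, 3424.8 and 3489.1 in co-transfer sites of day 7, 2903.2 and 3086.8 in mouse sites of day 9, 2634 and 2727.2 in rat sites of day 9, and 1727.2 and 1736.6 in co-transfer sites of day 9. The co-transfer sites of day 9 were the lowest group by a wide gap. They lay under rat sites of the same day by -0.61 (SE 0.08, adjusted p = 2.620e-04), under mouse sites by -0.77 (SE 0.08, adjusted p = 3.550e-04, lost in 1 setting) and under co-transfer sites of day 7 by -0.98 (SE 0.073, adjusted p = 1.448e-05). The probe set 1437497_a_at gave the same directions (-0.58, -0.48 and -1.11), the middle one, against mouse sites, being lost in 11 settings. On day 7 these probe sets differed in direction. Against mouse sites 1437497_a_at gave 0.37 in rat sites (adjusted p = 0.04675, lost in 14 settings) and 0.59 in co-transfer sites (adjusted p = 0.003074). There 1426645_at gave -0.20 and -0.04, neither called. The brightest, 1438902_a_at, spanned 11554.4 to 14674.5 over all arrays and fell only in co-transfer sites over the days (-0.28, adjusted p = 0.01696, lost in 5 settings), while its other comparisons missed the threshold.

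Hspe1 encodes Hsp10, the lid of the mitochondrial chaperonin. Its brighter probe set 1450668_s_at, of a class whose probes match transcripts of several genes, read 8925.9 and 8461.4 in mouse sites of day 7, 9566.3 and 10293 in rat sites of day 7, 8585, 8549.8 and 8888.3 in co-transfer sites of day 7, 7225.7 and 7867 in mouse sites of day 9, 8571.5 and 9560.1 in rat sites of day 9, and 6479.4 and 6473.5 in co-transfer sites of day 9. Co-transfer sites of day 9 were again the lowest arrays, under rat sites by -0.48 (SE 0.094, adjusted p = 0.003166) and under co-transfer sites of day 7 by -0.42 (SE 0.085, adjusted p = 0.005719). The second probe set, 1422579_at, was higher in rat than in mouse sites of day 7 (0.62, SE 0.149, adjusted p = 0.01445, lost in 3 settings), where 1450668_s_at gave 0.19 and was not called. In co-transfer against rat sites of day 9, 1422579_at gave -0.35 (SE 0.149, adjusted p = 0.09829) and was not called.

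Of the small heat shock proteins, Hspb1, which binds unfolded proteins and actin, was lower in co-transfer than in rat sites of day 9. Its probe set 1422943_a_at read 8969.2 and 8771.5 in mouse sites of day 7, 9788.2 and 9120.3 in rat sites of day 7, 8463.9, 7995.1 and 8815.7 in co-transfer sites of day 7, 9572.3 and 10009.7 in mouse sites of day 9, 9960 and 11172.7 in rat sites of day 9, and 6930.7 and 7010.6 in co-transfer sites of day 9. On this probe set the co-transfer sites of day 9 lay under all other arrays. The log2 change from rat sites was -0.59 (SE 0.094, adjusted p = 9.108e-04) and that of 1425964_x_at was -0.73 (SE 0.157, adjusted p = 0.005508). From mouse sites 1422943_a_at changed by -0.49 (SE 0.094, adjusted p = 0.01322, lost in 5 settings) and 1425964_x_at by -0.39 (adjusted p = 0.1739, not called). On 1425964_x_at the co-transfer sites of day 9 read 5504 and 5344.5. Replicate 2 of mouse sites of day 7 (5304.1) and replicate 2 of co-transfer sites of day 7 (4763.3) were lower.

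Cryab encodes the alpha B-crystallin of muscle and lens, and was the only gene called higher in co-transfer than in rat sites of day 9 among the 10 representative probe sets. Its probe set 1434369_a_at read 5168.6 and 5050.9 in mouse sites of day 7, 6638.7 and 8000.4 in rat sites of day 7, 7811.6, 7664.1 and 7726.9 in co-transfer sites of day 7, 3846.3 and 4783.4 in mouse sites of day 9, 3608.1 and 3522.8 in rat sites of day 9, and 5485.9 and 5105.7 in co-transfer sites of day 9. Both groups with rat embryos were above mouse sites on day 7, and rat sites of day 9 were the lowest arrays. The rat sites of day 7 exceeded mouse sites by 0.51 (SE 0.122, adjusted p = 0.01429, lost in 5 settings) and 1416455_a_at by 0.59 (SE 0.12, adjusted p = 0.006120, lost without replicate 2 of the mouse sites of day 7, where it was 0.46 with an adjusted p of 0.05573).

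On day 9 the order of Cryab in rat sites turned. Rat sites lay under mouse sites by -0.66 on 1416455_a_at (SE 0.12, adjusted p = 0.002194) and by -0.26 on 1434369_a_at, which was not called. Co-transfer sites exceeded rat sites by 1.08 (SE 0.12, adjusted p = 8.489e-05) and 0.56 (SE 0.122, adjusted p = 0.005793). From day 7 to day 9 Cryab fell in rat sites on both probe sets (-1.28 and -1.02) and in co-transfer sites on both (-0.59 and -0.54).

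**Figure D2:**
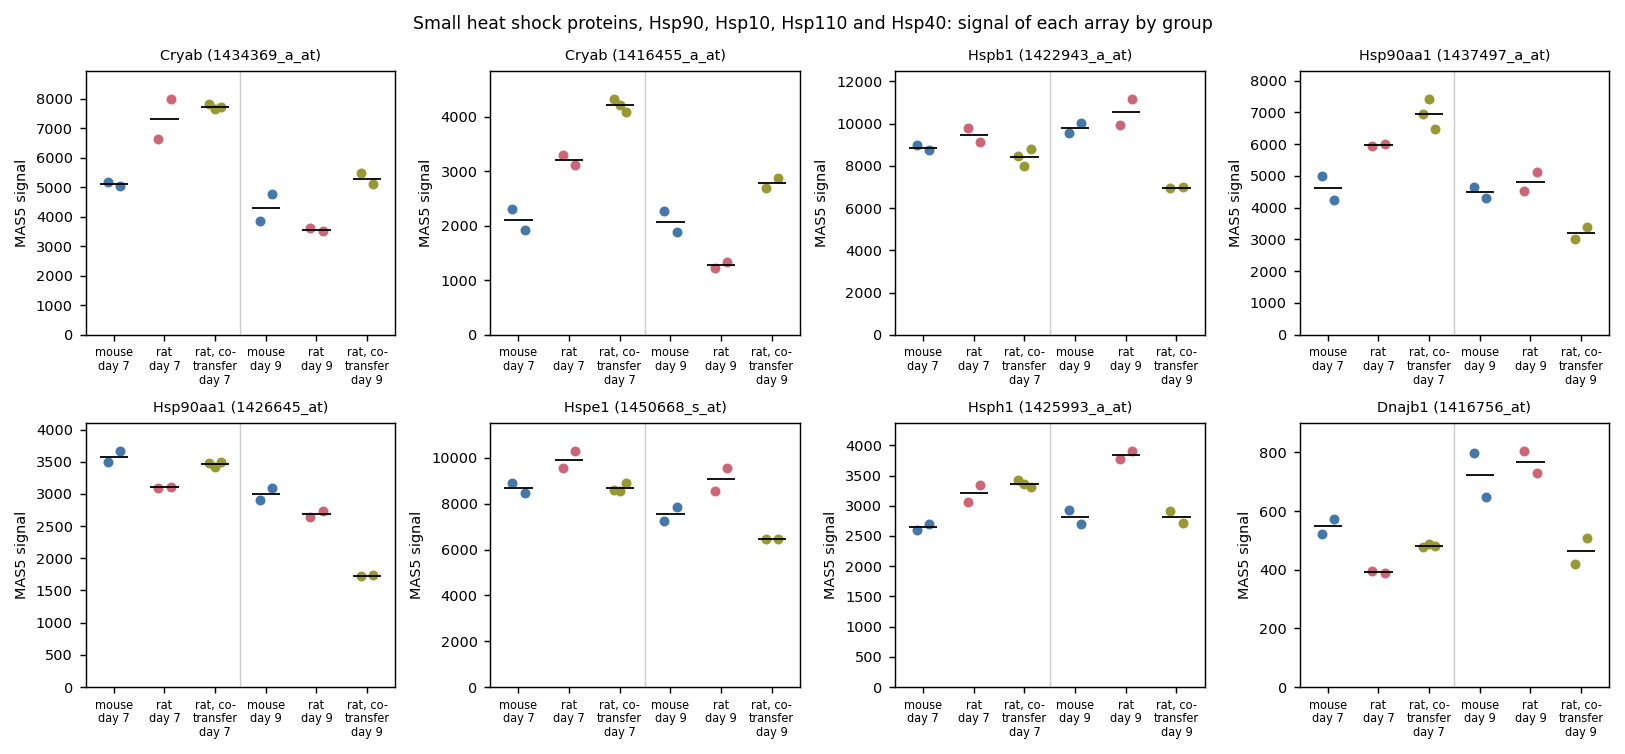
Signal of each array (points) and group mean (black bars) for 8 probe sets of Cryab, Hspb1, Hsp90aa1, Hspe1, Hsph1 and Dnajb1, on linear axes from 0. Co-transfer sites of day 9 are the lowest group for Hspb1, Hsp90aa1 and Hspe1, and rat sites of day 9 are the lowest for Cryab.

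Counts over the members are read against the share of all 22138 probe sets that passed the same test. In rat against mouse sites of day 7, 4 of the 24 member probe sets were higher and 7 lower, against 13% and 11.4% of all probe sets, and 5 of the 7 lower ones were those of Hspa1a, Hspa1b and Hspa8 described above. The other lower ones belonged to Dnajb1 and Hspa4l. With 1 probe set per gene the median log2 change of the 10 genes was 0.06, against 0.03 over all tested probe sets. In co-transfer against mouse sites of day 7, where the mouse arrays are the same, 4 were higher and 6 lower, against 17% and 14.2%. In co-transfer against rat sites of day 7, none was higher and 1 lower, against 0.574% and 0.393%. At an unadjusted p under 0.05 in limma, 2 were higher and 3 lower there.

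In rat against mouse sites of day 9, 11 of 24 probe sets were higher and 1 lower, against 17.1% and 14.4% of all probe sets. By representative probe set, 5 genes were higher (Hspa1a, Hspa1b, Hspa8, Hsph1 and Dnajb1, the last lost in 11 of 20 settings), none was lower (6 and 0 at an unadjusted p under 0.05 in limma), and the median log2 change was 0.30, against 0.06 over all. In co-transfer against rat sites of day 9, 2 were higher, both of Cryab, and 17 lower, against 15.7% and 18.1%. By gene 7 were lower and 1 higher, with a median of -0.43 against -0.07. In co-transfer against mouse sites of day 9, 1 was higher and 4 lower, against 3.94% and 3.77%. The comparisons of day 9 share arrays pairwise, so their counts are not separate evidence.

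**Figure D3:**
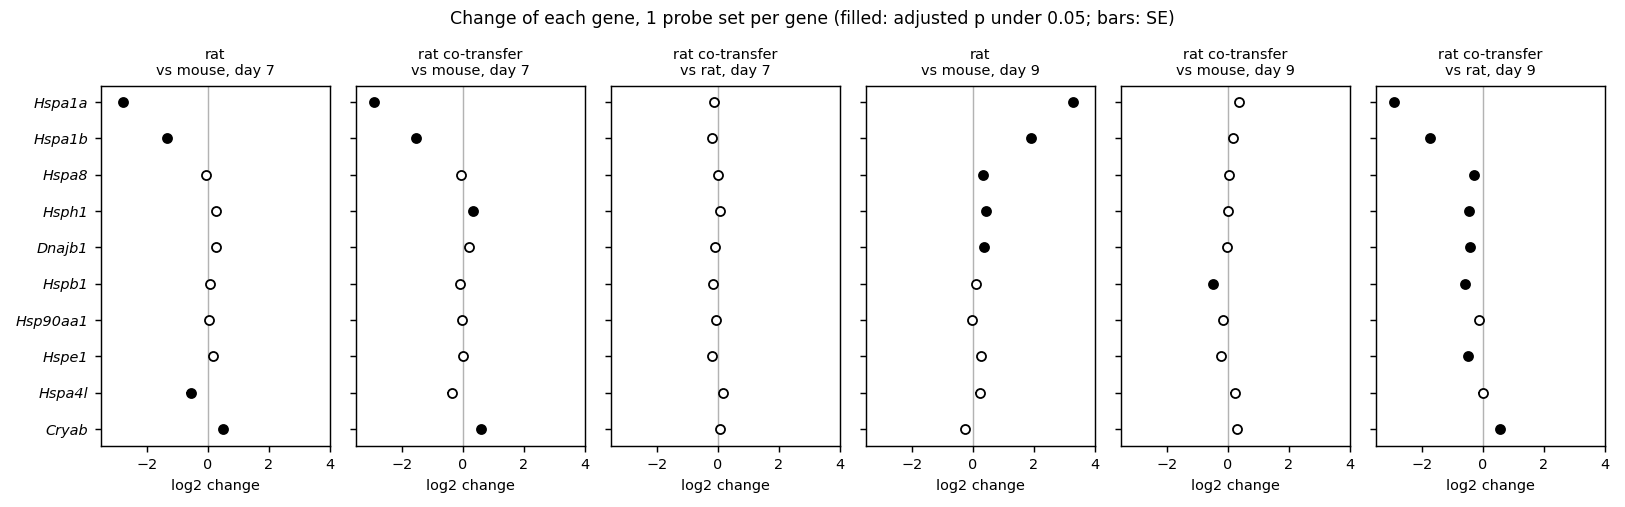
Log2 change of each gene's representative probe set in 6 comparisons, with filled points for adjusted p under 0.05 and bars for the SE, which are mostly shorter than the points. Hspa1a and Hspa1b lie far left in rat and co-transfer against mouse sites of day 7 and far right in rat against mouse sites of day 9, and no gene is filled in co-transfer against rat sites of day 7.

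Over the days, mouse sites had 2 member probe sets higher and 9 lower on day 9 than on day 7, against 21.9% and 22.3% of all probe sets. Rat sites had 11 higher and 3 lower, against 20.1% and 19.3%. Co-transfer sites had 3 higher and 10 lower, against 10.8% and 14.4%, and the 3 were those of Hspa1a and 2 of Hspa4l. Whether a difference between groups itself changed with the day was tested as an interaction. The difference between rat and mouse sites changed for 13 of 24 probe sets (11 upward), against 32.6% of all in either direction. That between co-transfer and mouse sites changed for 8, against 18.8%, and that between co-transfer and rat sites for 13, of which 12 downward, against 26.1%. The interaction of Hspa1a was 6.07 for rat against mouse sites (SE 0.189, adjusted p = 2.699e-08) and that of Cryab 1434369_a_at was -0.77 (SE 0.173, adjusted p = 0.007263), while those of Hsp90aa1 1438902_a_at and Hspe1 were not called. For co-transfer against mouse and against rat sites, Hsp90aa1 1426645_at gave -0.73 and -0.77, both called. The probe set 1437497_a_at gave -1.07 and -0.79, both called too. For co-transfer against rat sites Dnajb1 1416756_at gave -0.93, called, and 1416755_at gave -0.33, not called.

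**Figure D4:**
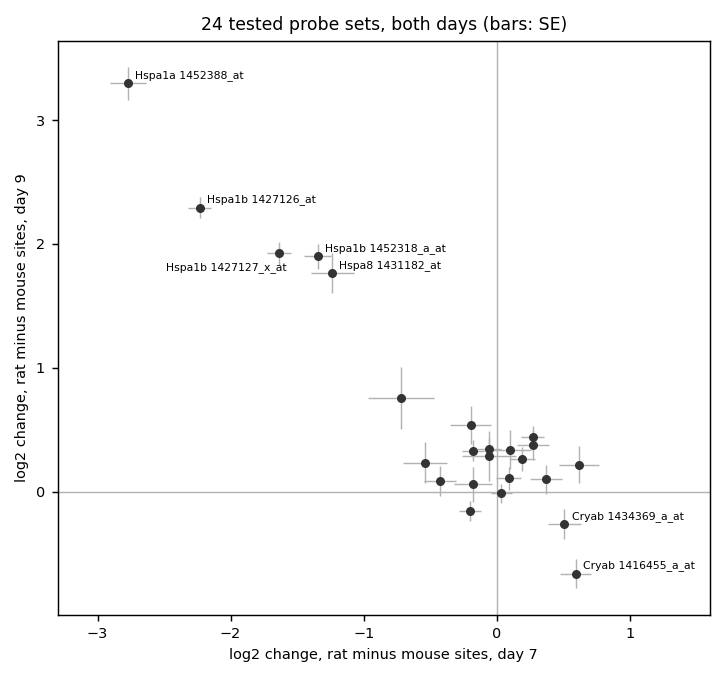
Log2 change of the 24 tested member probe sets between rat and mouse sites on day 7 (horizontal) and day 9 (vertical), with SE bars. The Hspa1a and Hspa1b probe sets and Hspa8 1431182_at lie at the upper left, negative on day 7 and positive on day 9, and both Cryab probe sets lie at the lower right.

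Several measures moved with these groups, and their part in the results was not tested. The 19 immediate early genes tested (of 20 listed), transcripts that rise within minutes of a stimulus, summed to 45484.1 to 45945.7 in mouse sites of day 7 and 33544.2 to 35340.8 in rat sites of day 9, against 18121.3 to 23445.9 in the other groups. They were thus high in the same groups as Hspa1a. On day 7, 13 of the 19 were lower and 1 higher in rat than in mouse sites, beside 11.4% and 13% of all probe sets. Their median log2 change was -0.83 against 0.03 over all, and Ier3 (-2.57), Fos (-2.25) and Nr4a1 (-1.995) led. On day 9, 8 were higher and 2 lower, beside 17.1% and 14.4% of all probe sets. The median was then 0.44 against 0.06 over all, and Ier3 (2.03), Egr1 (1.39) and Nr4a1 (0.92) led.

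Tissue markers moved too, each list being taken with all its genes on the array. The 10 epithelial markers summed to 72740.4 to 75804.7 in rat sites of day 9, 30133.9 to 30701.9 in mouse sites of day 7, 23362.2 to 23376 in mouse sites of day 9 and 8782.1 to 13269.2 in the other groups, so the 2 groups with high Hspa1a also had the 2 highest epithelial sums. The 10 decidual markers summed to 27123.3 to 27458.8 in rat sites of day 9 and 62106 to 63755.6 in mouse sites of day 7, the 2 lowest groups, and to between 79320.6 and 101211 elsewhere. Smooth muscle markers (10 genes) summed to 74966.1 to 76653.2 and 78404.8 to 80730 in those 2 groups, against 55179.1 to 71857.3 elsewhere. No marker was at 0 on any array, the decidual markers included.

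Embryonic and immune markers followed other orders. Embryonic red cell markers (5 genes) summed to 48462.4 to 49029.5 in mouse sites of day 9, 1876.7 to 1926.9 in rat sites of day 9 and at most 529.7 elsewhere, and trophoblast markers (6 genes on the array) to 23955.7 to 26541.7 in mouse sites of day 9 and at most 3948.3 elsewhere. Neutrophil markers (8 on the array) ran from 1751.6 to 22542.2, macrophage markers (8) from 9328 to 20418.6 and uterine natural killer cell markers (6) from 5112.7 to 29197, all 3 sums being highest in mouse sites of day 9. In RNA quality, Gapdh 3' to 5' ratios were 1.544 and 1.444 in mouse sites of day 7 against 2.558 to 4.068 elsewhere. Actb 3' to 5' ratios went the other way, with 3.472 and 3.707 in mouse sites of day 7 against 2.359 to 3.345 elsewhere. The 18S rRNA middle signals were 6737.2 and 6209.4 in rat sites of day 9 against 522.4 to 1933.1 elsewhere.

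Genes of the wider chaperone network were called in both directions. Of 41 genes listed for the HSF1 pathway and cytosolic cochaperones, 34 were tested. In rat against mouse sites 6 were higher and 4 lower on day 7 (median 0.07, beside 13% and 11.4% of all probe sets) and 9 higher and 6 lower on day 9 (median 0.06, beside 17.1% and 14.4%). In co-transfer against rat sites of day 9, 7 were higher and 12 lower (median -0.20 against -0.07 over all), beside 15.7% and 18.1% of all probe sets, and the same shares stand behind the other lists below. Fkbp5, an Hsp90 cochaperone that steroid receptors induce, changed most. Its log2 change was 2.10 in rat against mouse sites of day 7 (SE 0.106, adjusted p = 2.928e-06), -1.39 on day 9 (SE 0.106, adjusted p = 6.740e-06) and 1.97 in co-transfer against rat sites of day 9 (SE 0.106, adjusted p = 5.972e-07), the reverse of Hspa1a in sign each time. Hmox1, the stress-inducible heme oxygenase, had the signs of Hspa1a (-0.94, 1.24 and -1.02, all called).

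Some other small heat shock genes had the signs of Cryab in rat against mouse and in co-transfer against rat sites of day 9. Of 6 listed small heat shock genes outside the members 5 were tested, and 3 of them were lower in rat than in mouse sites of day 9 and higher in co-transfer than in rat sites. These were Cryaa, the alpha A-crystallin of the lens (-1.75 and 1.73), Hspb8, which clears misfolded proteins together with Bag3 (-1.37 and 1.58), and Hspb7, a small heat shock protein of muscle (-1.23 and 1.40). Bag3 itself gave -1.08 and 1.58. The other 2 tested genes were not called, with 0.45 and -0.59 for Hspb2 and 0.20 and 0.28 for Hspb6. Hspb8 is counted in the HSF1 list as well. Both comparisons use the same rat arrays. Over the days the list did not follow Cryab. In co-transfer sites, where Cryab fell, 4 of the 5 tested genes rose and 0 fell, beside 10.8% and 14.4% of all probe sets. In mouse sites, where Cryab was not called, 3 rose and 0 fell, beside 21.9% and 22.3%. In rat sites, where Cryab fell, 1 rose and 1 fell, beside 20.1% and 19.3%.

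Chaperones of other compartments were tested as lists of the same kind. Of the 19 genes tested for the endoplasmic reticulum (of 20 listed), 2 were higher and 7 lower in rat than in mouse sites of day 9 (median -0.12), and 10 were higher and 1 lower in co-transfer than in rat sites (median 0.29 against -0.07 over all). Among them were Dnajb9 (-0.81 and 1.02) and Dnajc3 (-0.83 and 0.98), Hsp40 cochaperones of the endoplasmic reticulum that the unfolded protein response induces. In both comparisons of day 9 the median of this list had the sign opposite to the change of Hspa1a. Of 8 subunits of the cytosolic chaperonin CCT, which folds actin and tubulin, 4 were lower in co-transfer than in rat sites of day 9 (median -0.28), led by Cct3 (-0.48), Cct6a (-0.40) and Cct8 (-0.36). Of 8 mitochondrial chaperones, 2 were higher (Clpx 0.50, Lonp1 0.39) and 1 lower (Hspd1 -0.36, the chaperonin partner of Hspe1, also in the HSF1 list), which is near the shares over all probe sets.

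**Figure D5:**
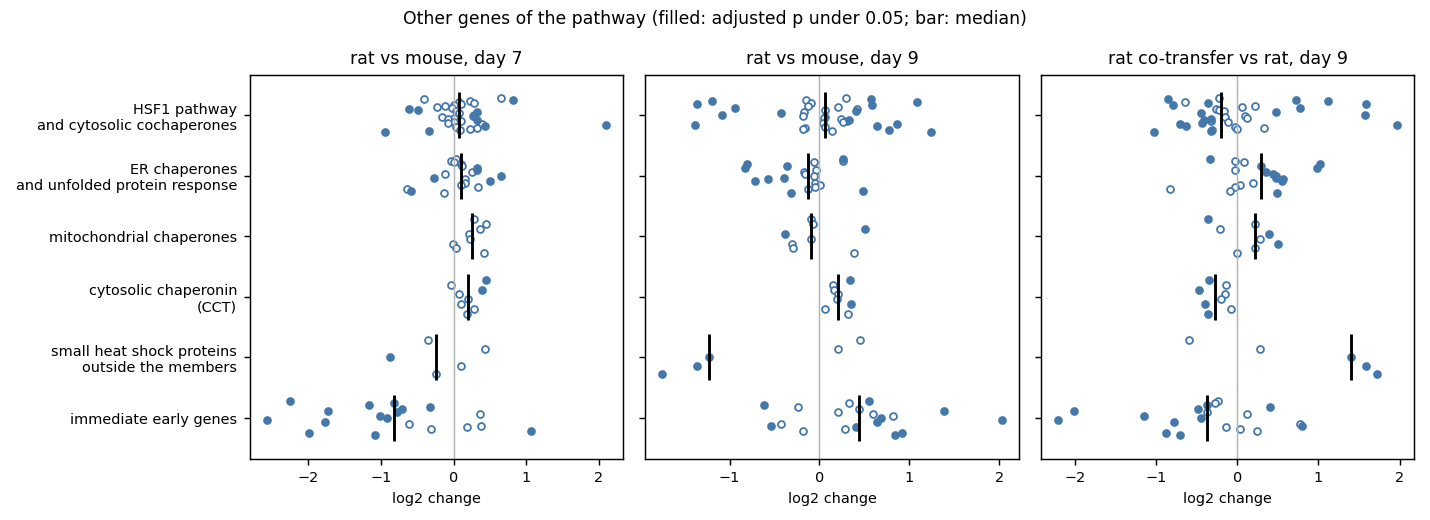
Log2 change of each tested gene of 6 lists in 3 comparisons, with filled points for adjusted p under 0.05 and a bar at the list's median. The medians of the small heat shock genes and of the endoplasmic reticulum lie left of 0 in rat against mouse sites of day 9 and right of it in co-transfer against rat sites, with 2 small heat shock genes on the right in the former, and immediate early genes lie mostly left on day 7 and right on day 9 in rat against mouse sites.

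Likeness of patterns was described by Pearson's r of log2 signals over the 13 arrays, which share their groups and runs, with no test. Among members the highest was 0.976, between Hspa1a and Hspa1b, whose probes may overlap, and Hspa1a against Cryab gave -0.687. Of all other tested genes the closest to Hspa1b were Dio2, which activates thyroid hormone (0.9907), Arl14 (0.9898), Col6a4, a collagen VI chain (0.9868), Inhbb, a subunit of activin and inhibin (0.985), and Tnc, the matrix protein tenascin C (0.9825). Dio2 had group means of 7461 in mouse sites of day 7, 9747 in rat sites of day 9 and between 575.9 and 781.1 in the other groups. For Hspa1a the closest was Chst11, a chondroitin sulfotransferase (0.9883), followed by Dio2 and Col6a4. The closest to Cryab was Vav2 (0.9893), then Wnk4 (0.9849), a kinase that controls salt transporters.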

How the data were processed

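Whole implantation sites were measured on 13 Affymetrix Mouse430_2 arrays, from about 100 mg of tissue and 8 µg of total RNA, per the labels' protocols. The authors deposited MAS5 intensity values, as the submitters' processing notes name them, as one signal per probe set (45101). The MAS5 version was not given in the sources used. On each array the mean without the lowest and highest 2 percent of values was 500, so the arrays had been scaled to 1 target, and no pair of arrays shared more than 0.149% of values. The experiment files gave hybridisation times, from which 4 runs were inferred (gaps over 30 minutes), 2 dates and 2 scanners.

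The deposited intensities were taken to log2(signal + 57.1), the 25th percentile of all values. The 64 AFFX controls were left out, and a probe set was tested when 2 or more arrays had it over their 60th percentile (22138 probe sets, of which 19207 with 1 symbol, for 12003 genes). A gene high in 1 group can pass through that group alone. limma 3.58.1 in R 4.3.3 fitted 6 group means to all arrays (7 residual and 2.71 prior degrees of freedom), with 9 comparisons and 3 interactions, after it was tested on simulated data. The number of arrays limits the precision. Labels show shared replicate numbers, and these did not pair the samples. Tried as alternatives were the pseudocount, the filter, quantile normalization, blocks for replicate number and date, only the arrays compared, array weights and leaving out each array.

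Symbols came from the platform annotation, in which 34958 probe sets had 1 symbol, 932 had several and 9211 had none. The tested probe set of highest mean log2 signal represents its gene. All members are named, with up to 3 called genes of largest change per list and comparison and up to 5 genes of most similar pattern. Members and lists were chosen with earlier results of these data known, so counts over them are descriptions.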

Additional observations from a re-analysis of the deposited data

Results flagged for a closer look

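The difference between groups changed with the day for 7 of the 10 genes on their representative probe sets, tested as limma interactions (Benjamini-Hochberg over all 22138 probe sets). Of all probe sets, 32.6% were called for rat against mouse sites, 18.8% for co-transfer against mouse and 26.1% for co-transfer against rat sites. The share called in any of these was not computed, so the 7 are a description. Other probe sets of Hsp90aa1 and Dnajb1 were also called, as given above. Against mouse sites, the change of the rat sites' difference from day 7 to day 9 was 6.07 on the log2 scale for Hspa1a (adjusted p = 2.699e-08), 3.25 for Hspa1b (adjusted p = 1.924e-07), 0.77 for Hspa4l (adjusted p = 0.03051), 0.40 for Hspa8 (adjusted p = 0.03559) and -0.77 for Cryab (adjusted p = 0.007263). For co-transfer against mouse sites it was 3.28 for Hspa1a (adjusted p = 4.316e-06) and 1.70 for Hspa1b (adjusted p = 5.107e-05). For co-transfer against rat sites it was -2.79 for Hspa1a (adjusted p = 4.525e-06), -1.55 for Hspa1b (adjusted p = 3.554e-05), -0.52 for Hsph1 (adjusted p = 0.01145) and -0.43 for Hspb1 (adjusted p = 0.03388). All 6 interactions of Hspa1a and Hspa1b and that of Cryab were called in each of 20 alternative settings. Hspa8 lost its call in 13 of them, Hspb1 in 11, Hspa4l in 7 and Hsph1 in 3.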

How the results depend on the processing

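Of 130 called values of member probe sets, 78 were called in all 20 alternative settings, 52 lost the call in 1 or more, and 0 changed direction. Those of Hspa1a and Hspa1b were called throughout, except the lower Hspa1b signal (1427127_x_at) in co-transfer than in rat sites of day 7. The number of member probe sets called in that comparison, 1, was 0 without the filter, with only the arrays compared, with the date as a block and with the replicate block, and 0 to 1 when an array was left out. The replicate block gave 11 in rat against mouse sites of day 9 and 19 in co-transfer against rat sites of day 9, and moved no other count by over 1.5 times. Same-numbered arrays deviated with r from -0.207 to 0.09 over 15 pairs of groups, so the numbers do not pair the arrays. Without the filter the count was 7 in rat against mouse sites of day 9 (12 as reported), 1 in co-transfer against mouse sites of day 9 (5) and 7 in mouse sites over the days (11). With only the arrays compared these were 6, 0 and 6, in fits with fewer arrays. Where not said otherwise, the cause was not tested.

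Leaving out 1 array gave 5 to 10 calls in rat against mouse sites of day 7 (11 as reported), 7 to 12 in rat against mouse sites of day 9, 1 to 6 in co-transfer against mouse sites of day 9, 6 to 12 in mouse sites over the days and 7 to 14 in co-transfer sites over the days. The lowest came without replicate 2 of mouse sites of day 7 (5 and 6), replicate 1 of rat sites of day 9 (7), replicate 1 of co-transfer sites of day 9 (1) and its replicate 2 (7). Other arrays that moved a count by over 1.5 times were rat sites of day 7, replicates 1 and 2 (7 and 6 in rat against mouse sites of day 7), replicate 1 of mouse sites of day 7 (7 in mouse sites over the days), replicate 2 of mouse sites of day 9 and of co-transfer sites of day 9 (both 2 in co-transfer against mouse sites of day 9), and replicate 1 of co-transfer sites of day 9 (8 in co-transfer sites over the days). The lone array of a group is then assumed to vary like the others. Signal over background limits Hspa4l, whose 3 tested probe sets never exceeded 588.7.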
